A study of Mus musculus with 10 samples.

Results

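The genes described here are 38 genes that the mouse oocyte expresses or that the egg supplies to the embryo, among them the components of the subcortical maternal complex, the zona pellucida and the oocyte transcription factors. They were chosen by name, and their promoters were taken as the 2000 bp windows of the deposited tables whose centre lies within 200 bp of an annotated start of the gene in mm10. Of the 38 genes, 36 had a window in at least 1 table, 29 had one in all 3 tables, 6 in both WT tables only and 1, Obox5, in the 11-month WT table only. Nlrp14 and Npm2 had no window at a start. The 36 genes held 54 windows of the 49668 nuclear windows listed for any pool, and 40537 of those nuclear windows were listed for every pool.

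DNA methylation was measured by low-input bisulfite sequencing of metaphase II (MII) oocytes, eggs arrested before fertilisation. The groups were 11-month-old WT mice (3 libraries), 2-month-old Tet2KO mice (3 libraries) and 2-month-old WT mice (4 libraries), all of strain C57BL6/129. Tet2KO carries a knockout of Tet2, a dioxygenase that oxidises 5-methylcytosine; the labels name no Cre driver or allele design, so the extent of the deletion is not stated. The labels give either a single oocyte or 10 oocytes as the input of a library. Each table holds the libraries of its group added together, so no value had a replicate, no difference below could be tested against the spread between mice or libraries, and n is 1 pool per group. A level is the percentage of CpG calls in a window that were methylated, a Wilson 95% interval is given for levels and a Newcombe 95% interval for differences, and both cover counting error only. Calls of 1 read or of PCR copies are not independent, so the true uncertainty is wider than these intervals. The pools held 16993859 calls in 11-month WT, 5464356 in Tet2KO and 9392359 in 2-month WT over nuclear windows, with a median of 159, 75.0 and 100 calls per window. Bisulfite reads 5-methylcytosine and 5-hydroxymethylcytosine alike.

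In female germ cells DNA methylation is erased before birth and laid down again while the oocyte grows, mainly across transcribed gene bodies, whereas the promoters from which transcription starts in the growing oocyte tend to stay free of it. Many genes used only in germ cells are methylated at their promoters in somatic tissues. Some of the proteins encoded here are stored in the egg and carry fertilisation and the first cleavages. As a check of the cell type, 11 of 12 maternally methylated imprinted genes, which are methylated in oocytes and at intermediate level in somatic cells, had a window in all 3 pools, and their median levels were 96.1% in 11-month WT, 93.8% in Tet2KO and 96.1% in 2-month WT. Peg10 and Sgce among them share 1 window and its calls. The 3 paternally methylated imprinted genes had medians of 2.33%, 2.22% and 4.21% in the same pools, with Meg3 at 23.4% in 2-month WT (107 calls).

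The promoters that the results turn on are printed here from the RefSeq promoter table (GRCm38.p6, the assembly behind mm10), which held a sequence for 29 of the 38 genes. Each runs 5′ to 3′ on the gene's own strand from 250 bases before the start to 50 bases after it, and the capitals mark CpG dinucleotides, the positions at which calls were made. The measured windows are longer and extend 1000 bp to each side of a centre near the start. Pabpn1l is shown because its level in Tet2KO stood more than 20 percentage points (called points below) above both other pools, and Oog1 because the WT pools lay more than 20 points apart. Nlrp5 is shown at its first start and at an internal start, which differed widely in level. Sohlh1 and Kit are shown as the genes with the lowest levels over all 3 pools. Oosp1 is shown, beside Pabpn1l, as one whose lowest level was highest in the window used.
Pabpn1l (chr8:122622686-122622985, minus strand): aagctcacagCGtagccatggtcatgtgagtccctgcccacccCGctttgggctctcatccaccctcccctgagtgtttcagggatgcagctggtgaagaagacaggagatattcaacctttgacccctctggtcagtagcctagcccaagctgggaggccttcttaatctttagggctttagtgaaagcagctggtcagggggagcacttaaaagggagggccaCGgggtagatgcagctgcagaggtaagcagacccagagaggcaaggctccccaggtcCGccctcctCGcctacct
Oog1 (chr12:87602415-87602714, plus strand): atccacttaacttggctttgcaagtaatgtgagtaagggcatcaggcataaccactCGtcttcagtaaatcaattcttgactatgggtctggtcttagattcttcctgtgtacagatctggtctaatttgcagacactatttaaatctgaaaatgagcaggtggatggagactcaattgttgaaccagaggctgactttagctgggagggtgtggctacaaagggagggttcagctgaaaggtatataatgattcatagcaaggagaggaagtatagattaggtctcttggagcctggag
Nlrp5 first start (chr7:23385639-23385938, plus strand): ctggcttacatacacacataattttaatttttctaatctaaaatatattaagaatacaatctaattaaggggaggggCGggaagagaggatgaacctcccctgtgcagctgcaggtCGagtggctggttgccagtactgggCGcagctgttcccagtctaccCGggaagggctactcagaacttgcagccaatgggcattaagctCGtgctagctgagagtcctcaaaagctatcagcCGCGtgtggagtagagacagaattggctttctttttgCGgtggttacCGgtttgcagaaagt
Nlrp5 internal start (chr7:23403852-23404151, plus strand): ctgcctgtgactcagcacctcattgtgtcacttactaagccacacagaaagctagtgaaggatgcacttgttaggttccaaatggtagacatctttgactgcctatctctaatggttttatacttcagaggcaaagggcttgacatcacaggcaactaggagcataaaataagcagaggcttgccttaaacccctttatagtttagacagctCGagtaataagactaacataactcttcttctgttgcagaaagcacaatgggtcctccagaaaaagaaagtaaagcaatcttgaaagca
Sohlh1 (chr2:25847199-25847498, minus strand): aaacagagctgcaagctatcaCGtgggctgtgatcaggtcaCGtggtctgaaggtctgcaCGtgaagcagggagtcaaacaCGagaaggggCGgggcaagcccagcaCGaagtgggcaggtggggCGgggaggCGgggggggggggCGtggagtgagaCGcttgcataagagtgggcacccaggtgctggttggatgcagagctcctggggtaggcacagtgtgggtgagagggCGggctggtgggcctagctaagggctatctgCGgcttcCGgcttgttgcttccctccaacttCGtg
Kit (chr5:75574737-75575036, plus strand): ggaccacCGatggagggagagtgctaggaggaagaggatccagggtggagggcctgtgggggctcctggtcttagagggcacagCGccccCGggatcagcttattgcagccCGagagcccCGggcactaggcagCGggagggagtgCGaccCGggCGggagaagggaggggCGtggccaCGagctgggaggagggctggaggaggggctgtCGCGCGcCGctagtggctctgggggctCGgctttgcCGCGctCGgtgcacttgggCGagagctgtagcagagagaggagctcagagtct
Oosp1 (chr19:11691002-11691301, minus strand): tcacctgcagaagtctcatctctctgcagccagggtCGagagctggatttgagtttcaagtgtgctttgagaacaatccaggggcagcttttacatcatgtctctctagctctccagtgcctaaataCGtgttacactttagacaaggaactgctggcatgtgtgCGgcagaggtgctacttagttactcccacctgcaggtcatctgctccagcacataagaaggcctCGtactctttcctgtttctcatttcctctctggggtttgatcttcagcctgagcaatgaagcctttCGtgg

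These sequences span the range of CpG content among the genes: Oog1 and the internal Nlrp5 start hold 1 CpG in 300 bases, Pabpn1l and Oosp1 hold 5 each, the first Nlrp5 start 9, Sohlh1 14 and Kit 20. Over the 35 promoter entries of the 29 genes the median was 3.00 CpGs (range 0 to 21) and the median observed over expected CpG ratio 0.200, while the 32851 entries for all genes had medians of 7 CpGs and 0.384. The promoters of the 29 genes with a sequence were therefore mostly CpG-poor. These are not the same 29 genes as those listed for all 3 pools below, and the 9 genes without a sequence are not covered. The letters CANNTG, an E-box of the kind bound by the basic helix-loop-helix factor Figla, were found on either strand in 32 of the 35 entries, against 72.3% of all entries. TAATTA and TAATTG, core letters of homeodomain sites, were found in 3 and 4 entries, against 5.29% and 8% of all entries, and the TATA box letters TATAAA in 4, against 13.6%. The pattern CANNTG is its own reverse complement, and the homeodomain patterns can share bases with each other. A match shows only that these letters are present.

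Promoters of the oocyte genes carried little methylation in every pool, as did most windows of any gene. With 1 window per gene, the median level over the 29 genes listed for all pools was 2.04% in 11-month WT, 0% in Tet2KO and 1.92% in 2-month WT, beside medians of 2.72%, 2.17% and 3.23% over the 40537 windows. None of the 29 genes reached 50% in any pool in the window used, while 14.3%, 14.4% and 13.8% of the 40537 windows did. Under 10% in every pool were 24 of the 29 genes, against 64.3% of all windows, and under 5% in every pool were 16, against 46.6%. The 5 genes at 10% or more in at least 1 pool were Astl, Gdf9, Bmp15, Pabpn1l and Omt2a. Depth set how finely these levels could be read: the 29 genes had a median of 155 calls in 11-month WT, 47.0 in Tet2KO and 80 in 2-month WT, and under 20 calls were behind 1, 6 and 4 of them. The median of 0% in Tet2KO, the pool with the fewest calls, is read with that in mind.

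**Figure D1:**
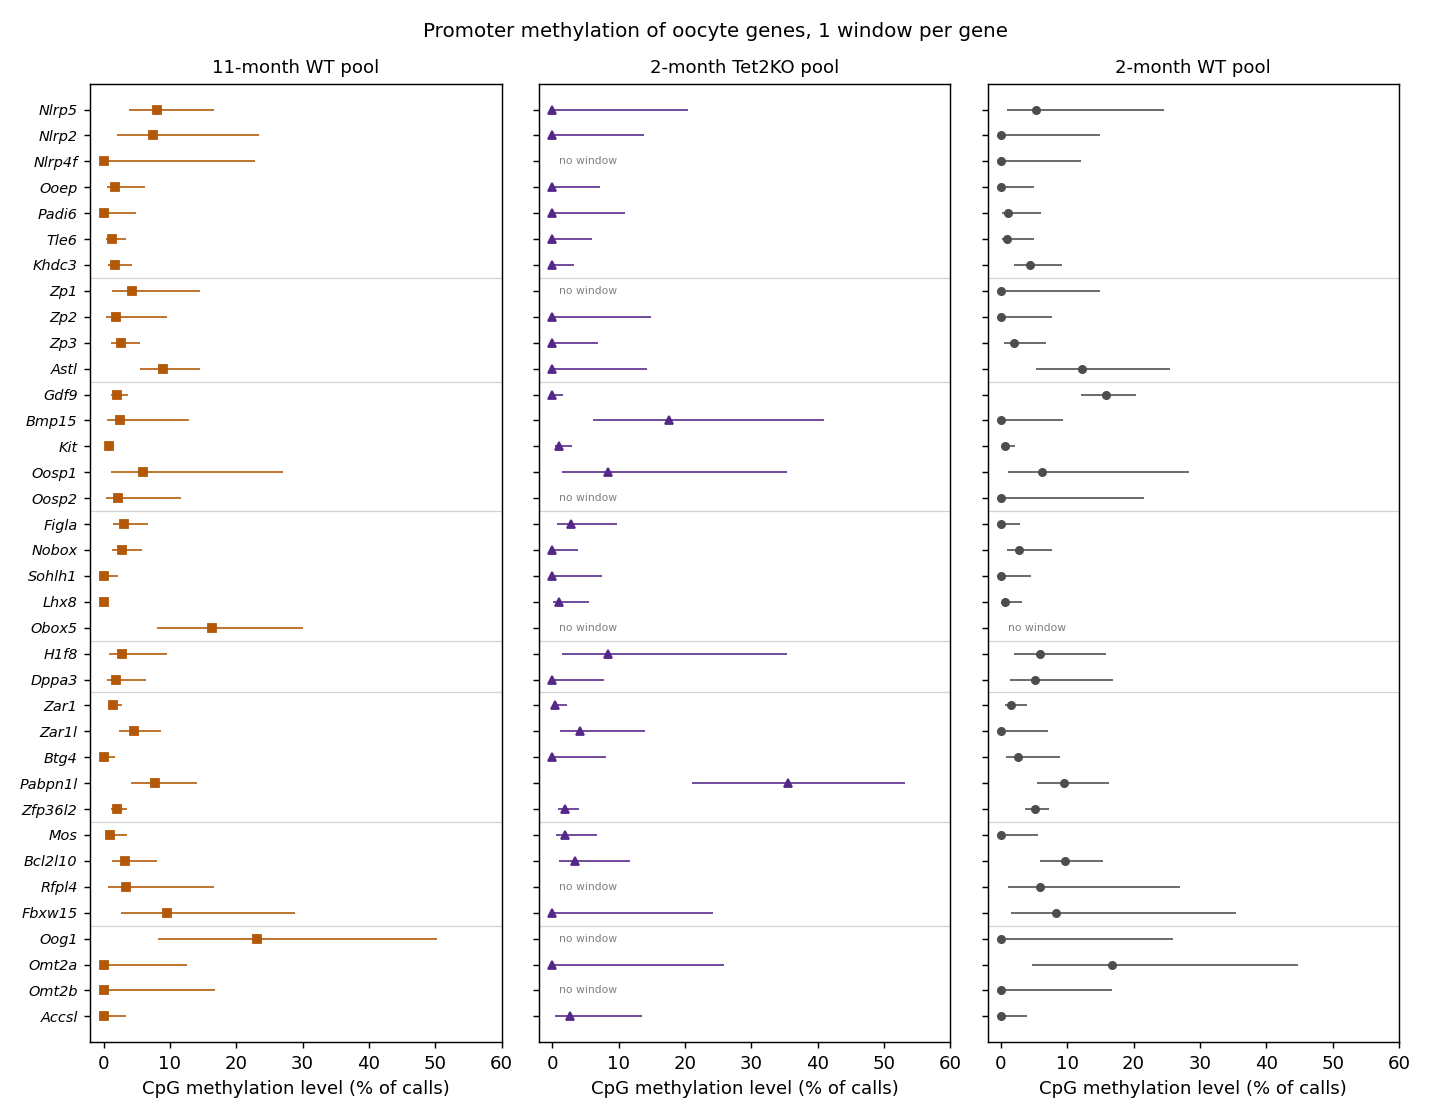
Methylation level (% of CpG calls) at 1 promoter window per gene in the 11-month WT, 2-month Tet2KO and 2-month WT pools; points are pooled values, bars Wilson 95% intervals for counting error, and grey lines separate the roles. Most genes lie under 10% in each pool, and Pabpn1l in Tet2KO stands apart at 35.5%.

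The low levels were also seen where promoters offer few CpGs. Among windows with at most 29 covered CpG positions in their best covered pool, 34.0% of all 11293 windows were at 50% or more in 11-month WT, 34.2% in Tet2KO and 32.6% in 2-month WT, and none of the 10 oocyte genes of that class was. All 10 were under 10% in 11-month WT, 9 in Tet2KO and 8 in 2-month WT, against 48.6%, 48.7% and 49.0% of all windows. These 10 were Nlrp5, Nlrp2, Padi6, Zp2, Astl, Bmp15, Oosp1, H1f8, Fbxw15 and Omt2a. The counts use 1 window per gene, from those listed for every pool. The internal Nlrp5 start, not listed for Tet2KO, is outside them. It was at 100% in 11-month WT (12 calls) and 69.2% in 2-month WT (13). In the class of 30 to 59 positions, 14, 13 and 14 of 14 genes were under 10%, against 69.9%, 69.3% and 66.4% of 8757 windows. The 5 genes with 60 or more positions, Gdf9, Kit, Lhx8, Zar1 and Zfp36l2, had highest levels of 2.07% in 11-month WT, 1.85% in Tet2KO and 15.8% in 2-month WT. In that class most windows of any gene were low, at 91.6%, 91.1% and 85.5% under 10%. Deeper pools cover more positions of the same sequence, and these shares describe the chosen genes without a test.

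**Figure D2:**
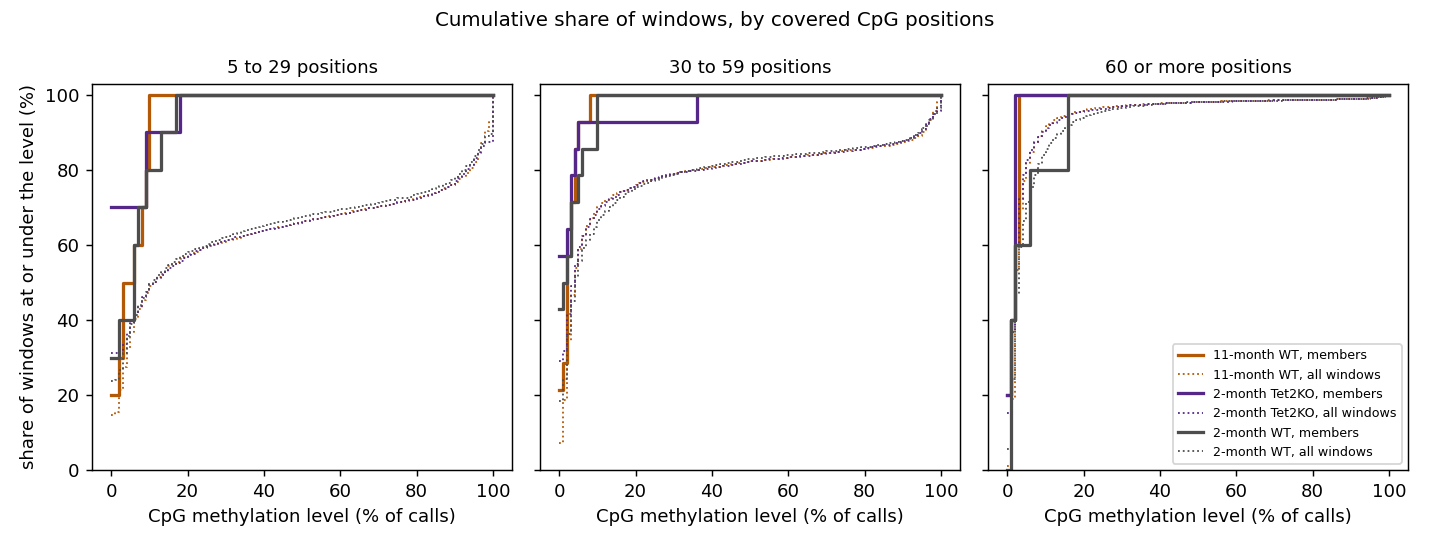
Cumulative share of windows (%) at or under each methylation level (% of CpG calls), for oocyte genes (solid lines, 10, 14 and 5 genes from left to right) and all windows listed for every pool (dotted lines), in classes of covered CpG positions. In the class of 5 to 29 positions the gene curves reach 100% of genes below 20%, while 34.0% of all windows in 11-month WT lie at 50% or more.

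The subcortical maternal complex, a protein assembly beneath the egg surface that embryos need for the first cleavages, was represented by Nlrp5 (Mater), Ooep, Tle6 and Khdc3. Ooep was at 1.75% in 11-month WT (114 calls), 0% in Tet2KO (50) and 0% in 2-month WT (74). Tle6, a co-repressor relative that joins the complex, was at 1.20% of 251 calls, 0% of 61 and 0.917% of 109 in the same pools. Khdc3, a KH-domain protein, was at 1.67% in 11-month WT (239 calls), 0% in Tet2KO (115) and 4.38% in 2-month WT (137). These 3 genes lay under 5% throughout, and at Khdc3 the interval of the Tet2KO difference just excluded 0 (-4.38 points, -9.23 to -0.379). In its window centred 1 bp from the start the 2-month WT level was 9.68% of 62 calls, and 6 calls were methylated there too. Nlrp5 itself was at 8.11% in 11-month WT (74 calls), 0% in Tet2KO (15) and 5.26% in 2-month WT (19). A count of 0 in 15 calls allows a level of up to 20.0%, so the order of the 3 pools is not resolved at Nlrp5.

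Related egg proteins showed the same low range. Padi6, a protein of the cytoplasmic lattices of the egg, was at 0% in 11-month WT (74 calls), 0% in Tet2KO (31) and 1.11% in 2-month WT (90). Nlrp2, of the same protein family as Nlrp5, was at 7.41% of 27 calls, 0% of 24 and 0% of 22 in those pools. Nlrp4f, another family member, was at 0% in 11-month WT (13 calls) and 0% in 2-month WT (28) and had no window in Tet2KO. Over the 6 genes of this role listed in every pool, 0 of 296 calls were methylated in Tet2KO, while 11-month WT and 2-month WT had 17 of 792 and 9 of 479 calls over 7 genes. In the start windows used, the calls of this role were thus all unmethylated in Tet2KO and nearly so in both WT pools. Windows further inside these genes are not part of these counts.

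Nlrp5 differed widely along its length. At its first start the levels were those given above, whereas at the internal start 18.2 kb downstream, which the promoter table also lists, all 12 calls were methylated in 11-month WT and 69.2% in 2-month WT (13), with no window in Tet2KO. A further window centred 21.1 kb from the first start, at no start of the promoter table, was at 100% in 11-month WT (17 calls, Wilson interval 81.6 to 100), 88.2% in Tet2KO (17, 65.7 to 96.7) and 60% in 2-month WT (35, 43.6 to 74.4). Both internal windows were high in every pool that listed them and the first start was low. At the 21.1 kb window 11-month WT was above 2-month WT by 40 points (16.6 to 56.4) and Tet2KO above 2-month WT by 28.2 points (1.43 to 46.7). The 18.2 kb and 21.1 kb windows share no base and hold few calls. They were examined after their values were seen and stand outside the counts over genes.

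**Figure D3:**
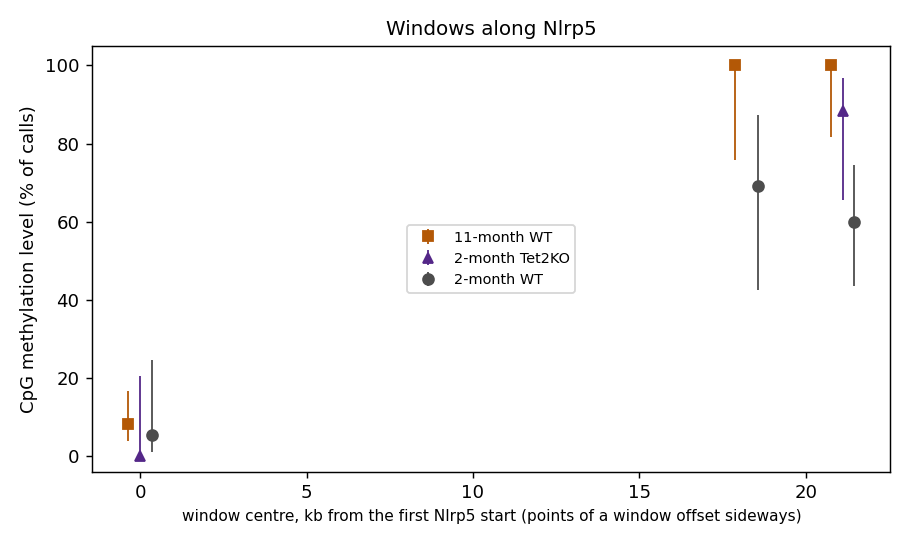
Methylation level (% of CpG calls) of windows along Nlrp5 against the distance of the window centre from the first start (kb), in the 3 pools; bars are Wilson 95% intervals. The first start lies at 8.11% or below, and the windows at 18.2 and 21.1 kb lie at 60% or above.

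The zona pellucida is the glycoprotein coat of the egg, and Zp3 and Zp2 are proteins of its filaments. Zp3 was at 2.58% in 11-month WT (233 calls), 0% in Tet2KO (52) and 1.92% in 2-month WT (104). Zp2 was at 1.82% of 55 calls, 0% of 22 and 0% of 46 in the same pools. Zp1, which cross-links the filaments, was at 4.35% in 11-month WT (46 calls) and 0% in 2-month WT (22). The levels of these 3 zona genes were thus under 5% where listed. Counts of 0 resolve less than that: they allow up to 13.6% at Zp2 in Tet2KO and at Zp1 in 2-month WT. Astl encodes ovastacin, the protease that cleaves Zp2 after fertilisation, and was higher, at 9.03% in 11-month WT (155 calls), 0% in Tet2KO (23) and 12.2% in 2-month WT (41). The Tet2KO difference from 2-month WT at Astl was -12.2 points with an interval that includes 0 (-25.5 to 3.68). The end of Dusp2, a neighbouring phosphatase gene on the same strand, lies 261 bp from the centre of the Astl window.

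The egg speaks to the surrounding granulosa cells through the growth factors Gdf9 and Bmp15, both of the TGF-beta family, and receives a signal through the receptor tyrosine kinase Kit. Gdf9 was at 2.04% in 11-month WT (540 calls, interval 1.14 to 3.61), 0% in Tet2KO (224, 0 to 1.69) and 15.8% in 2-month WT (292, 12.0 to 20.4). The 2-month WT pool stood above both others, and its interval met neither of theirs. Gdf9 was -13.7 points from 2-month WT at 11 months (-18.4 to -9.67) and -15.8 points from it in Tet2KO (-20.4 to -11.7), short of 20 points in both. By the deposited fraction, which weights each CpG position equally, Gdf9 in 2-month WT was at 12.3%. The annotated end of Uqcrq, a subunit gene of respiratory complex III, lies 4 bp from the centre of the Gdf9 window (chromosome 11, 53429828 to 53431827). The end of Gdf9 lies 53 bp from that centre. The window thus covers an end of both genes, and its level cannot be assigned to Gdf9 alone. A window inside Gdf9, 2524 bp from the nearer gene end, was at 3.70% in 11-month WT (27 calls), 0% in Tet2KO (16) and 5% in 2-month WT (20). Of 10 granulosa and cumulus genes, 9 had a window. In 2-month WT 8 of 9 lay above 11-month WT and 7 of 8 above Tet2KO, beside 47.7% and 52.6% of all windows. Lhcgr went the other way in both comparisons, at 15.8% in 11-month WT, 28.1% in Tet2KO and 10.5% in 2-month WT. Median levels of these genes were 2.06% in 11-month WT, 1.39% in Tet2KO and 10.5% in 2-month WT, with Amh above 90% throughout. Their part in the Gdf9 difference, and in those of the other genes that were higher in 2-month WT, was not tested.

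Bmp15, on the X chromosome (window 6319722 to 6321721), was at 2.50% in 11-month WT (40 calls), 17.6% in Tet2KO (17 calls) and 0% in 2-month WT (37 calls). Its Tet2KO level rested on 3 methylated calls, and the difference from 2-month WT was 17.6 points (2.82 to 41.0), while that from 11-month WT was 15.1 points with an interval that includes 0 (-0.313 to 38.6). Kit had the deepest window in 11-month WT and was at 0.822% of 1217 calls there, 1.01% in Tet2KO (296) and 0.573% in 2-month WT (349). The Kit levels differed by less than 0.5 points between any 2 pools. Oosp1, an oocyte-secreted protein, was at 5.88% of 17 calls, 8.33% of 12 and 6.25% of 16 in those pools, and each of these levels is 1 methylated call. Another Oosp1 window, centred 99 bp from the same start, was at 0% of 15 calls, 0% of 12 and 0% of 16. The place of Oosp1 among the extreme levels therefore depends on the window. Oosp2 was at 2.22% in 11-month WT (45 calls) and 0% in 2-month WT (14).

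Of the transcription factors of the oocyte programme, Sohlh1, Lhx8, Figla and Nobox had few methylated calls. Sohlh1, a helix-loop-helix factor of the primordial follicle, had no methylated call: 0 of 176 in 11-month WT, 0 of 47 in Tet2KO and 0 of 80 in 2-month WT, which allow levels of up to 1.70%, 6.38% and 3.75%. It was the only one of the 29 genes at 0% in every pool, beside 1.90% of all windows, and 1 in 29 is near that share. Lhx8, a LIM homeodomain factor, was at 0% in 11-month WT (517 calls), 1.02% in Tet2KO (98) and 0.585% in 2-month WT (171). The lncRNA gene AI606473 starts 162 bp from the centre of the Lhx8 window on the opposite strand. Figla, which switches on the zona genes, was at 3.14% of 191 calls, 2.86% of 70 and 0% of 127 in those pools. Nobox, a homeodomain factor of oocytes, was at 2.71% in 11-month WT (221 calls), 0% in Tet2KO (94) and 2.73% in 2-month WT (110). None of these 4 genes had a level of 5% in any pool, and 46.6% of all windows were under 5% in every pool. In 11-month WT Figla and Nobox lay near the median of 2.72% over all windows. Obox5, of an oocyte homeobox family, was at 16.3% in 11-month WT (43 calls) and had no window elsewhere.

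Chromatin proteins of the egg were represented by H1f8, the oocyte linker histone, and Dppa3 (Stella), which protects the maternal genome of the zygote from loss of methylation. H1f8 was at 2.78% in 11-month WT (72 calls), 8.33% in Tet2KO (12) and 5.88% in 2-month WT (51). Dppa3 was at 1.82% of 110 calls, 0% of 45 and 5.13% of 39 in the same pools. All differences at these genes had intervals that include 0. Of the nucleoplasmin gene Npm2, one window inside the gene, 5788 bp from the nearer annotated end, was at 15.9% in 11-month WT (145 calls), 0% in Tet2KO (32) and 11.4% in 2-month WT (70).

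Regulators of maternal RNA held the largest difference among the 29 genes. Pabpn1l encodes a poly(A)-binding protein that works with Btg4 to clear maternal transcripts after fertilisation. Its window (chromosome 8, 122621735 to 122623734) was at 7.76% in 11-month WT (116 calls, 4.14 to 14.1), 35.5% in Tet2KO (31 calls, 21.1 to 53.1) and 9.57% in 2-month WT (115 calls, 5.43 to 16.3). The Tet2KO interval met neither WT interval. Tet2KO was above 2-month WT by 25.9 points (10.0 to 44.0) and above 11-month WT by 27.7 points (12.0 to 45.7). The 11 methylated calls in Tet2KO came from a window with 16 covered positions, and the deposited fraction was 33.9% there, against 8.46% in 11-month WT and 8.18% in 2-month WT. Another window, centred 360 bp from the start and outside the 200 bp limit, was at 28.6% in Tet2KO (21 calls), with 11.2% in 11-month WT (125) and 13.0% in 2-month WT (123). The pair of windows share most of their bases and are no separate measurements.

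The other regulators of maternal RNA were low. Btg4, an adaptor that brings the CCR4-NOT deadenylase to maternal transcripts, was at 0% in 11-month WT (223 calls), 0% in Tet2KO (44) and 2.60% in 2-month WT (77), with an age difference of -2.60 points (-8.98 to -0.0655). That window lies at the start in the RefSeq gene table. At the start in the promoter table, where 11-month WT had 0 of 11 calls methylated and 2-month WT 0 of 14, the difference was 0 (-21.5 to 25.9). A window overlapping the one used was at 1.52% at 11 months (460 calls), 0% in Tet2KO (106) and 1.39% in 2-month WT (144). Zar1, an RNA-binding zinc finger protein of the egg, was at 1.48% of 675 calls, 0.386% of 259 and 1.57% of 255 in those pools. Its relative Zar1l was at 4.52% in 11-month WT (177 calls), 4.17% in Tet2KO (48) and 0% in 2-month WT (50). The levels of these 3 genes stayed under 5% in the windows used, though 0 of 44 calls at Btg4 in Tet2KO allows up to 6.82%. Zfp36l2, which binds AU-rich elements and marks transcripts for decay, was at 2.07% in 11-month WT (579 calls), 1.85% in Tet2KO (325) and 5.11% in 2-month WT (568). Its differences from 2-month WT were small and their intervals excluded 0, at -3.03 points at 11 months (-5.34 to -0.882) and -3.26 points in Tet2KO (-5.61 to -0.645). An end of the lncRNA gene Gm36279 lies 97 bp from the centre of the Zfp36l2 window.

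Mos, the kinase that holds the egg in metaphase arrest, was at 0.976% in 11-month WT (205 calls), 1.92% in Tet2KO (104) and 0% in 2-month WT (65). Bcl2l10, a BCL2 family member of oocytes, was at 3.23% of 124 calls, 3.45% of 58 and 9.68% of 155 in those pools, with an age difference of -6.45 points (-12.5 to -0.395). Bcl2l10 was higher in 2-month WT than in either other pool, and the Tet2KO interval included 0 (-12.4 to 2.85). Fbxw15, an F-box protein gene, was at 9.52% in 11-month WT (21 calls), 0% in Tet2KO (12) and 8.33% in 2-month WT (12). Rfpl4, a RING finger protein gene, was at 3.33% in 11-month WT (30 calls) and 5.88% in 2-month WT (17). At these last 2 genes no more than 2 methylated calls stood behind any level.

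The remaining oocyte transcripts were thinly covered. Oog1 (window on chromosome 12, 87601688 to 87603687) was at 23.1% in 11-month WT (13 calls) and 0% in 2-month WT (11). The WT pools thus differed by 23.1 points, with an interval that includes 0 (-6.79 to 50.3). Omt2a was at 0% in 11-month WT (27 calls), 0% in Tet2KO (11) and 16.7% in 2-month WT (12), where 2 calls were methylated. Both cases lie within counting error. The window used for Omt2a lies at the 5′ end of the gene in the RefSeq gene table. The window at the start in the promoter table was at 0% in 11-month WT (43 calls) and 0% in Tet2KO (15) and was not listed for 2-month WT. Omt2b was at 0% of 19 calls in both WT pools. Accsl was at 0% in 11-month WT (111 calls), 2.63% in Tet2KO (38) and 0% in 2-month WT (95).

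The comparison of 11-month with 2-month WT asked how maternal age bears on promoter methylation. Of the 29 genes, 0 were higher at 11 months by 20 points or more and 0 were lower, where 2.78% and 2.76% of the 40537 windows were. The median difference over the genes was -0.0123 points, beside 0 over all windows. Intervals excluded 0 at 4 genes, Gdf9, Btg4, Zfp36l2 and Bcl2l10, all lower at 11 months, against 16.3% of all windows, and at 0 genes in the higher direction, against 10.0%. The genes depended on the window: with the window nearest the start Khdc3 joined them, at -9.68 points (-19.5 to -3.97), which made 5 genes. With a distance of 50 bp the lower genes were Khdc3, Bcl2l10 and Zfp36l2, 3 of 24, since Gdf9 had no window that close and Btg4 none in Tet2KO. With the genes listed in both WT pools added, 15 of 35 were higher at 11 months, 16 lower and 4 equal, beside 48.2%, 47.7% and 4.06% of all windows, and Oog1 was the 1 gene past 20 points. No test was possible on these pooled values.

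The comparison of Tet2KO with WT at 2 months asked how loss of Tet2 bears on it. Pabpn1l was the 1 gene of 29 higher in Tet2KO by 20 points or more (3.45%, beside 3.29% of all windows), and 0 genes were lower (beside 3.22%). A share of 1 in 29 is near that of all windows. The median difference was -0.917 points, beside -0.241 over all windows, with 10 genes higher, 15 lower and 4 equal, beside 38.6%, 52.6% and 8.75% of all windows. Intervals excluded 0 in the higher direction at Bmp15 and Pabpn1l (2 of 29, beside 7.58% of all windows) and in the lower direction at Khdc3, Gdf9 and Zfp36l2 (3 of 29, beside 13.2%). The age and Tet2KO comparisons share the 2-month WT pool, so the values of Gdf9 and Zfp36l2, low in both other pools, are not independent between them.

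**Figure D4:**
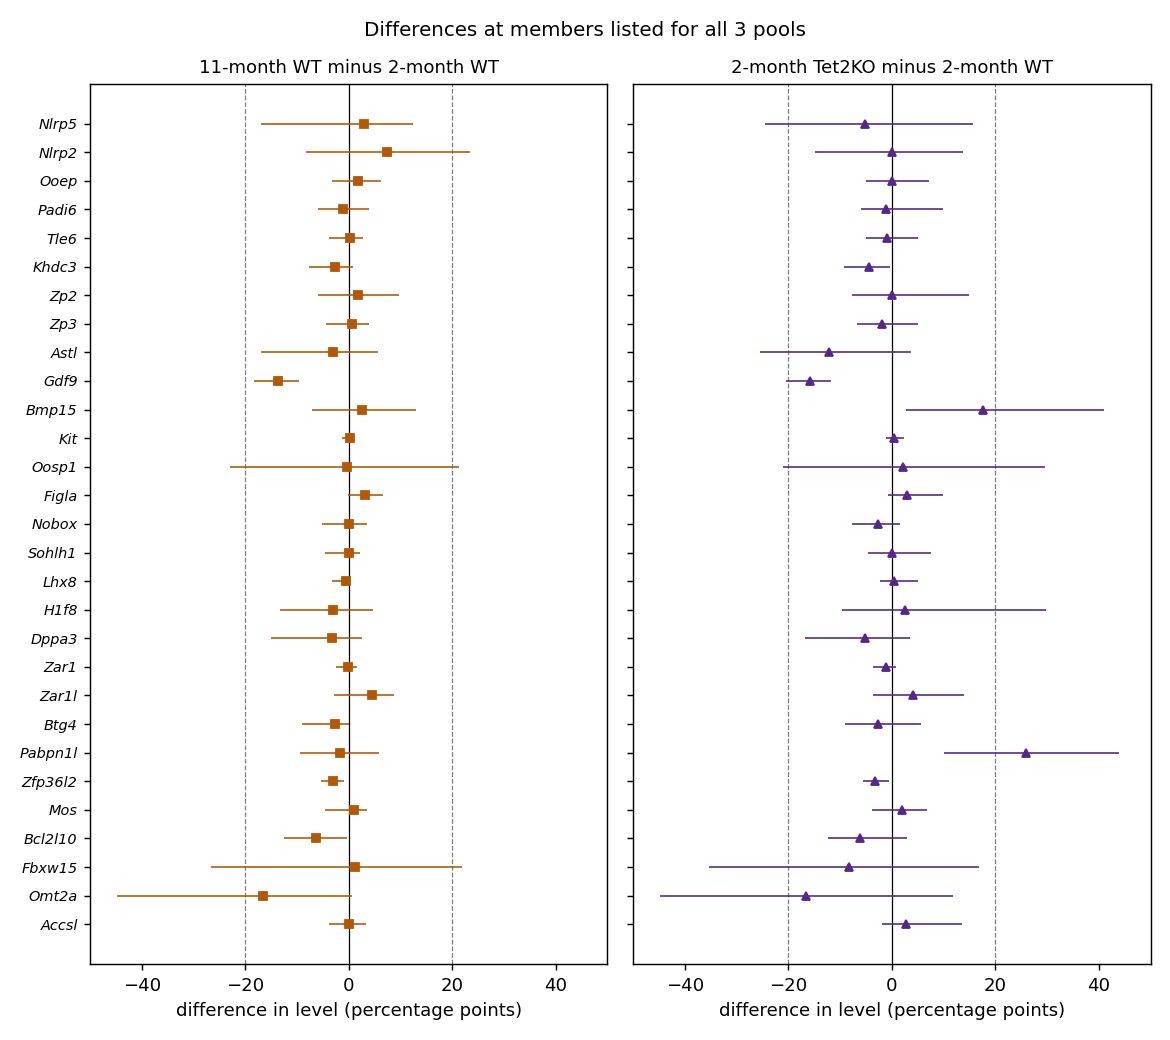
Difference in methylation level (percentage points) of the 11-month WT pool (left) and the 2-month Tet2KO pool (right) from the 2-month WT pool, at the 29 genes listed for every pool; bars are Newcombe 95% intervals for counting error, and dashed lines mark 20 points. Pabpn1l at 25.9 points in Tet2KO is the single point beyond a dashed line.

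Tet2KO and 11-month WT, which differ in both genotype and age, were set side by side without use of the 2-month WT pool. Pabpn1l was again the 1 gene of 29 higher in Tet2KO by 20 points or more (beside 2.09% of all windows), and 0 were lower (beside 1.94%). Intervals excluded 0 at Pabpn1l in the higher direction (7.77% of all windows) and at Gdf9 in the lower (7.88%), where the difference was -2.04 points (-3.61 to -0.128). The median difference was -0.284 points, beside -0.394 over all windows.

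A second list of 45 oocyte genes was read in the same way, of which 34 had a window in 11-month WT and 26 in every pool. Their median levels over the 26 genes were 1.53% in 11-month WT, 1.36% in Tet2KO and 1.79% in 2-month WT, where the 29 genes had 2.04%, 0% and 1.92%. In Tet2KO 7 of 28 genes of this list were at 0%, and 16 of the 29 genes were, beside 22.7% of all windows. The 28 genes held 4811 calls in Tet2KO and the 29 genes 2238, so these counts are not compared at equal depth. Gpr3, the receptor that keeps the oocyte arrested before ovulation, was the 1 gene of 26 higher at 11 months by 20 points, at 31.7% in 11-month WT (578 calls), 14.4% in Tet2KO (153) and 5.82% in 2-month WT (189). Elavl2, an RNA-binding protein gene, was the 1 gene lower, at 41.0% in 11-month WT (327 calls), 90.7% in Tet2KO (107) and 76.3% in 2-month WT (152). In Tet2KO 0 of 26 genes differed from 2-month WT by 20 points. Against 11-month WT, Elavl2 was the 1 gene of 26 higher in Tet2KO by 20 points, at 49.7 points (beside 2.09% of all windows). In that comparison 0 genes were lower (beside 1.94%). The highest levels in this list were 100% in 11-month WT, 90.7% in Tet2KO and 100% in 2-month WT.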

How the data were processed

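Low-input bisulfite libraries were made from MII oocytes, per the labels' protocols. The submitters' processing notes name Trimmomatic, Bismark and the build mm10; further steps, and which tool did what, are not stated there. Deposited were whole-number counts of methylated, unmethylated and all CpG calls and of covered positions per 2000 bp window, each pooled over a group by the authors, and a deposited fraction, which is a mean over CpG positions. Depth per library is therefore unknown. No listed window has under 10 calls or 5 positions. The table of 2-month WT ends within a line on the X chromosome beyond Bmp15; that line (1 line) was dropped, and windows past it are not analysed here for that pool.

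Levels were 100 times methylated over all calls, with Wilson and Newcombe 95% intervals (scipy 1.17.1, Python 3.11.15). The Newcombe interval was tested on simulated data. Those calls were drawn independently, so the test does not cover the dependence between calls of 1 read. No test was run on pooled values. The limit for a count of 0 is 3 calls over the total. Starts came from the RefSeq promoter table and the 5′ end of the gene in the RefSeq gene table, or, for 9 genes without a promoter entry, from either gene end. Per gene, among the windows listed for most pools, the one with most calls in its thinnest pool was used. Sequences were shown for genes 20 points apart between pools and 4 of extreme level. The genes and lists were chosen with earlier results of these data known. Alternatives were the deposited fraction, a minimum of 50 calls, a distance of 50 bp, the nearest window, and leaving out genes whose relative calls per position differed over 3 times between pools.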

Additional observations from a re-analysis of the deposited data

How the results depend on the processing

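The counts and medians over the 29 genes kept their values within counting error under most alternatives. By the deposited fraction, 2 genes instead of 1 were higher in Tet2KO than in 2-month WT by 20 points or more: Bmp15, at 21.4% in Tet2KO and 0% in 2-month WT, joined Pabpn1l. With at least 50 calls in both pools, 13 genes remained and 0 were higher in Tet2KO than in 2-month WT and 0 than in 11-month WT, because Pabpn1l has 31 calls in Tet2KO and is left out. The counts of genes whose interval excluded 0 were recomputed after seeing the data, and 3 of them went to 0: those higher in Tet2KO than in 2-month WT (2 genes otherwise) and than in 11-month WT with at least 50 calls, and those lower in Tet2KO than in 11-month WT with a distance of 50 bp, where Gdf9 has no window. No difference of 20 points or more changed sign. By the deposited fraction, 10 of 93 differences of single genes did, none above 2.84 points by calls or 5.56 by fraction. Of the differences of single genes, 5 values moved by more than their spread in counting: Khdc3 was -9.68 points from 2-month WT in both comparisons with the window nearest its start and with a distance of 50 bp, and Btg4 was at 0 for age with that distance, since another window is used. Leaving out genes of unequal depth removed none of the 29 genes. No paired analysis was possible because each table holds 1 pooled value per group and none per library, and for the same reason no library could be left out. The depth limits what could be seen: with 0 methylated calls, the shallowest genes allow a level of up to 23.1% in 11-month WT and 27.3% in the other pools.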

Other observations

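Windows further inside the genes were read as well. Gdf9 had one 2524 bp from the nearer gene end, at 3.70% in 11-month WT (27 calls), 0% in Tet2KO (16) and 5% in 2-month WT (20). Nlrp14, which had no window at a start, had one 31114 bp inside the gene, at 0% of 29 calls, 6.25% of 16 and 0% of 23 in those pools. The second start of Astl in the promoter table was at 0% in 11-month WT (29 calls) and 3.45% in 2-month WT (29), below the first start in both pools.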
